A study of Mus musculus with 4 samples.

Results

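The AP-2 transcription factors and the Mab21l genes were followed in the midbrain of *Lmx1a-dr/dr* mouse embryos at E12.5. They are 7 genes (*Tcfap2a*, *Tcfap2b*, *Tcfap2c*, *Tcfap2d*, *Tcfap2e*, *Mab21l1* and *Mab21l2*, the AP-2 genes now being called *Tfap2a* to *Tfap2e*) of 18295 named on the array. All 11 probes that the annotation of the array gives to these symbols were used, of 41174 probes tested. The genes were chosen with their values on these same arrays known, so the comparison of the genotypes is given for them as a description, without a test.

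The dr/dr allele (drJ) is a point mutation in *Lmx1a*, a LIM homeodomain gene that is active in the floor plate and roof plate of the embryonic brain. The mutant line came from a mixed stock (B6C3Fe a/a) and was kept on C57Bl/6J, and embryos were bred from heterozygous parents. Each of 4 mutant samples (replicates a to d) was RNA of 5 dissected *Lmx1a-dr/dr* midbrains and was hybridized on 1 two-colour array together with RNA of the same pool of 20 *Lmx1a-+/+* midbrains. The dr/dr RNA was labelled with Cy3 on arrays a and c and with Cy5 on arrays b and d. The mutation is present in every tissue of the embryo, not in the midbrain alone. Values are log2 ratios of dr/dr over wild-type, and a ratio of 0 is equal signal. The wild-type pool has no replicate, and arrays of opposite dye held different mutant pools, so dye and pool cannot be told apart. The labels call the tissue dissected midbrain, and the study describes it as tegmentum, from the mesodiencephalon and the retromammillary area. How much dorsal midbrain the dissection held is not stated. In RNA of such tissue, fewer cells of a type and less RNA per cell cannot be told apart either.

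AP-2 proteins bind DNA as dimers through a basic helix-span-helix domain, at GC-rich palindromes. *Tcfap2a* and *Tcfap2b* are best known from neural crest, face, kidney and sympathetic neurons, *Tcfap2c* from trophoblast and germ cells, *Tcfap2d* from the retina and the dorsal midbrain, and *Tcfap2e* from the olfactory system. The Mab21l genes are named after mab-21 of *Caenorhabditis elegans*, which acts in the patterning of the sensory rays of the male tail. In the mouse, *Mab21l1* and *Mab21l2* are active in the developing eye and dorsal midbrain, and both are needed for normal eye development. Their proteins carry the nucleotidyltransferase fold that is also found in the DNA sensor cGAS.

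As a check of the genotype, the *Lmx1a* probe lay at -0.46, -0.75, -0.39 and -0.84 on arrays a to d. It was lower in dr/dr on all 4 arrays and had signal in both genotypes. The median spot intensity of an array ranged from 70.0 to 84.7 in Cy3 and, in Cy5, from 137.4 to 174.2, and 78.2% to 98.9% of probes exceeded their local background. Arrays of the same dye orientation correlated at 0.64 and 0.58 over all probes, and arrays of opposite orientation between -0.34 and -0.29. Of 11 markers of midbrain identity, 10 exceeded background in both channels on every array, and the means were highest for *Otx2* (0.20) and *Fgf8* (0.09) and lowest for *Foxa2* (-0.12) and *En1* (-0.48). The linear model (limma with a dye term and Benjamini-Hochberg adjustment) called 0% of probes at an adjusted p under 0.05 and 17.1% at an unadjusted p under 0.05. The permutation F2 test that the study used, repeated here, called 0.274% of probes.

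Most probes of the AP-2 and Mab21l genes, as of all named genes, gave signal above background in both genotypes. Of their 11 probes, 10 exceeded background (by more than 2 SD of the background) in both channels on all 4 arrays. The exception was the second *Tcfap2a* probe, which did so on 1 array. The same rule was passed by 26774 of the 34186 probes with a symbol, so passing it does not by itself show expression. The median log2 ratio of the 11 probes was 0.08, and 5 of them had a mean between -0.1 and 0.1. Over all probes the median was 0.00 and the 5th and 95th percentiles were -0.17 and 0.17. Of the 11, 3 probes were higher in dr/dr on all 4 arrays, where 8.06% of all probes were, and 0 were lower on all 4, where 8.02% of all probes were. The permutation F2 test called 2 of the 11, 1 of *Tcfap2b* and 1 of *Mab21l1*, both higher in dr/dr. Nothing is read from these counts, since the genes were selected on this contrast.

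**Figure D1:**
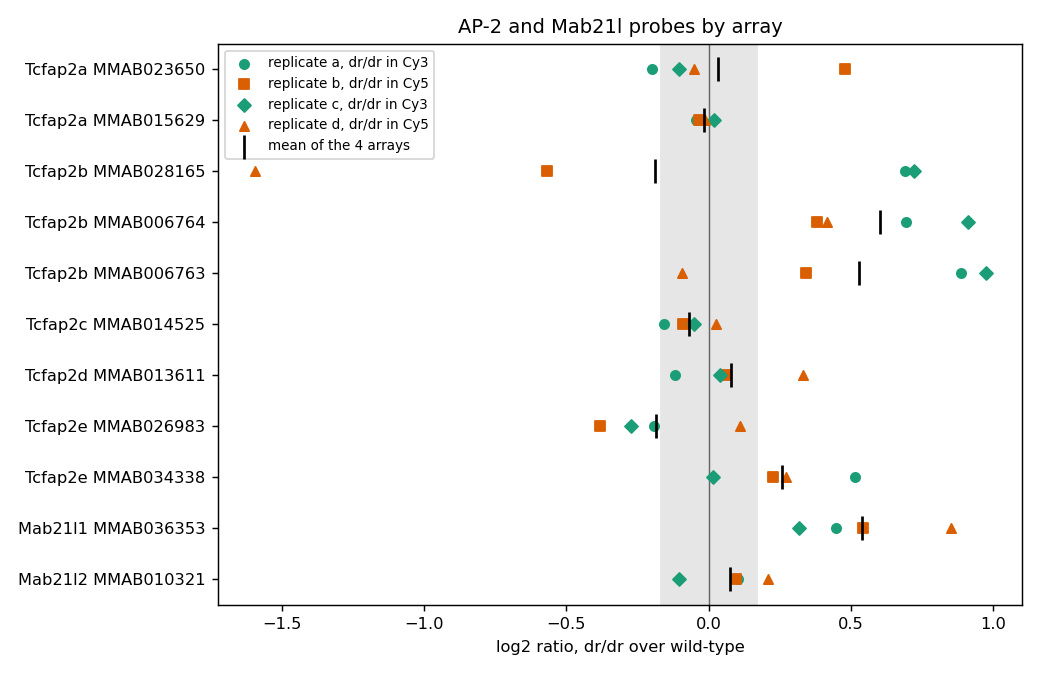
Log2 ratio of the dr/dr over the wild-type signal (x axis) for each of the 11 AP-2 and Mab21l probes (y axis), with 1 point per array coloured by the dye of the dr/dr RNA, a bar at the mean, and a grey band from the 5th to the 95th percentile of the means of all probes. A *Tcfap2b* probe (mean 0.60) and *Mab21l1* (mean 0.54) had all 4 points to the right of 0, and *Tcfap2b* MMAB028165 had its Cy3 and Cy5 points on opposite sides of 0.

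*Tcfap2b* had the highest and the lowest mean among the 11 probes. Its probe MMAB006764 was at 0.69, 0.38, 0.91 and 0.42 on arrays a to d. All 4 arrays were higher in dr/dr, with a mean of 0.60 ± 0.25 (SD, n = 4), or 152% of the wild-type signal. The dimmer probe MMAB006763 was at 0.89, 0.34, 0.97 and -0.09, and its mean was 0.53 ± 0.50 (SD, n = 4). It was higher on 3 arrays and slightly lower on array d. The brightest probe, MMAB028165, was at 0.69, -0.57, 0.72 and -1.60, with a mean of -0.19 ± 1.12 (SD, n = 4). It was higher on both arrays with dr/dr RNA in Cy3 and lower on both arrays with dr/dr RNA in Cy5, so its mean gives no direction.

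The 3 *Tcfap2b* probes therefore gave one answer in one dye orientation and several in the other. On arrays a and c all 3 were higher in dr/dr and close to each other, from 0.69 to 0.89 on array a and from 0.72 to 0.97 on array c. On array b they ranged from -0.57 to 0.38, and on array d from -1.60 to 0.42. All 3 probes were higher with dr/dr RNA in Cy3 than in Cy5. The orientation means (Cy3, then Cy5) were 0.80 and 0.40 for MMAB006764, 0.93 and 0.13 for MMAB006763, and 0.71 and -1.08 for MMAB028165. The difference between orientations was larger for MMAB028165 than for 99.7% of all probes, for MMAB006763 than for 97.9% and for MMAB006764 than for 89.1%. Since the orientations also held different mutant pools, this difference is not known to come from the dye. Without array d, the mean of MMAB028165 became 0.28 and that of MMAB006763 became 0.74. These plain means of arrays a to c weigh the Cy3 orientation more than the Cy5 orientation. Probe sequences were not analysed here, so the transcript that each probe reads is unknown.

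The spot intensities before normalization are given for each *Tcfap2b* probe. Why the probes disagreed was not tested. For MMAB028165, dr/dr RNA gave 1582 and 1368 in Cy3 (arrays a and c) and 1967 and 2027 in Cy5 (b and d). The wild-type pool, a single RNA, gave 2797 and 2480 in Cy5 (a and c) but 982 and 1851 in Cy3 (b and d). The Cy3 readings of this 1 pool thus differed between arrays b and d, and raw values of different dyes are not comparable, since Cy5 was the brighter channel on every array. For MMAB006764 the same pool gave 240 and 247 in Cy3, and 655 and 546 in Cy5. The dr/dr RNA gave 426 and 418 in Cy3 and 796 and 847 in Cy5 with that probe. For MMAB006763 the pool gave 110 and 120 in Cy3, and 218 and 176 in Cy5. With MMAB006763 the dr/dr RNA gave 176 and 158 in Cy3 and 317 and 252 in Cy5.

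**Figure D2:**
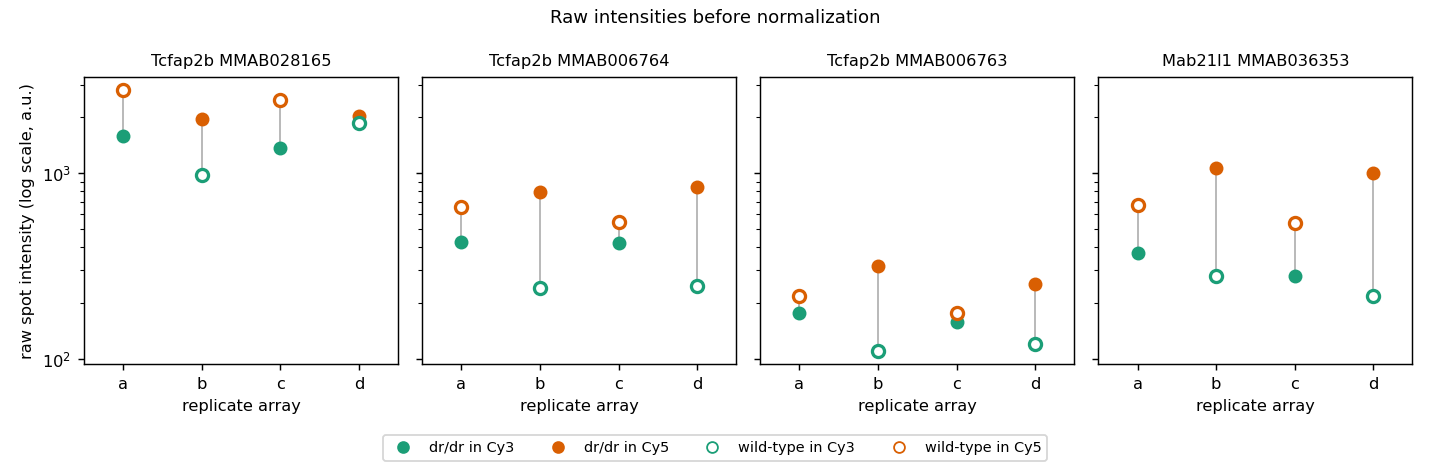
Raw spot intensity on a log axis (arbitrary units) for the 3 *Tcfap2b* probes and the *Mab21l1* probe on arrays a to d, filled circles for dr/dr and open circles for wild-type, coloured by dye. For *Tcfap2b* MMAB028165 the wild-type circle in Cy3 moves from 982 on array b to 1851 on array d, while for MMAB006764 it stays at 240 and 247. Heights are not comparable between probes.

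*Mab21l1* was higher in dr/dr on every array. Its only probe was at 0.45, 0.54, 0.32 and 0.85 on arrays a to d, with a mean of 0.54 ± 0.23 (SD, n = 4), or 145% of the wild-type signal. The orientation means were 0.38 in Cy3 and 0.70 in Cy5, the opposite order to *Tcfap2b*. In raw intensity, dr/dr RNA gave 371 and 280 in Cy3 (arrays a and c) and 1069 and 1007 in Cy5 (b and d). The wild-type pool gave 281 and 217 in Cy3 (b and d) and 675 and 541 in Cy5 (a and c). Readings in the same dye thus come from different arrays and are not normalized to each other. Without any 1 array the mean stayed between 0.44 and 0.61. The related *Mab21l2* was at 0.10, 0.09, -0.10 and 0.21, with a mean of 0.08 ± 0.13 (SD, n = 4). It was thus close to 0 and not of the same sign on all arrays.

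The other AP-2 genes lay closer to 0 or had probes that disagreed. *Tcfap2a* MMAB023650 was at -0.20, 0.48, -0.10 and -0.05, so array b alone was higher, and the mean of 0.03 ± 0.30 (SD, n = 4) became -0.12 without it. Its second probe, near background, was between -0.04 and 0.02. *Tcfap2c* was at -0.16, -0.09, -0.05 and 0.03 with a dim probe, whose mean was -0.07 ± 0.08 (SD, n = 4). *Tcfap2d*, the family member best known from the dorsal midbrain, was at -0.12, 0.06, 0.04 and 0.33. Its mean was 0.08 ± 0.19 (SD, n = 4). It became -0.01 without array d, a plain mean that weighs the Cy3 orientation more than the Cy5 orientation. The brighter *Tcfap2e* probe was at -0.19, -0.38, -0.27 and 0.11, with a mean of -0.18 ± 0.21 (SD, n = 4). The dimmer was at 0.51, 0.23, 0.01 and 0.27, with a mean of 0.26 ± 0.21 (SD, n = 4). The 2 probes of *Tcfap2e* therefore pointed in opposite directions, with 3 of 4 arrays lower for one and 4 of 4 higher for the other.

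The promoters of the members were examined for the binding sequence of AP-2 itself and for that of homeodomain proteins, the class to which *Lmx1a* belongs. The RefSeq promoter table (GRCm38.p6) holds 5 of the 7 members with 8 start sites, and has *Tcfap2b* but not *Mab21l1*. The AP-2 motif GCCNNNGGC, a palindrome read the same on both strands, was in none of the 8 windows of 250 bases before the start. Of 32851 promoters, 13.7% hold it in such a window. With so few windows, nothing is read from the difference. The homeodomain core TAAT was counted on both strands (as TAAT or ATTA, overlapping matches included) after the sequences had been seen. *Tcfap2b* had 6 matches, at or above which are 3.26% of all promoters, *Tcfap2d* had 3, 3 and 1 at its start sites and *Mab21l2* had 0. The first and second *Tcfap2d* windows overlap and hold the same 3 matches. *Tcfap2a* had 3 and 4 at its start sites (9.62% of promoters have at least 4) and *Tcfap2e* had 1. The median over all promoters was 1, and 54.9% had at least 1. The longer palindrome TAATTA, also searched after the sequences had been seen, was found once, 32 bases before the second start of *Tcfap2a*, and 4.84% of promoters hold it. A match is only a match of letters. The *Tcfap2b* window is shown with that of its neighbour *Tcfap2d* and that of *Mab21l2*, as the highest count, that of the adjacent gene and the lowest count. They are at chr1:19211804-19212053 (+), chr1:19102772-19103021 (+) and chr3:86548284-86548533 (-), written 5′ to 3′ with TAAT and ATTA in capitals.
Tcfap2b: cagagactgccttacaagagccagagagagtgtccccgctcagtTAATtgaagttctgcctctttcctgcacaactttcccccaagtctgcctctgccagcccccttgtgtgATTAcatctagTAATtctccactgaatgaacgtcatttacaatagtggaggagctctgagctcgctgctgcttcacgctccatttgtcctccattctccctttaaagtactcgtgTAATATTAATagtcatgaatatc
Tcfap2d: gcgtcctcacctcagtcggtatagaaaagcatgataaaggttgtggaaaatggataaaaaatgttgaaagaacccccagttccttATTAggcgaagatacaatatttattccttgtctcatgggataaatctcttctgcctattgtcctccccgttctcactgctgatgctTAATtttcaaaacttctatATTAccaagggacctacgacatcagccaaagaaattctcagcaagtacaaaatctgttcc
Mab21l2: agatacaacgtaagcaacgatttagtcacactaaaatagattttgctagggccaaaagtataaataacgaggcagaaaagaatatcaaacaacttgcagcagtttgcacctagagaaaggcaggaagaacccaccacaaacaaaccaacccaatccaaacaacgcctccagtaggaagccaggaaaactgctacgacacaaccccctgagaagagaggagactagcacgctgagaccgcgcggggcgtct

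*Tcfap2b* and *Tcfap2d* are adjacent on chromosome 1, and the Mab21l genes lie inside larger genes, *Mab21l1* in *Nbea* and *Mab21l2* in *Lrba*. The 2 nearest measured genes on each side of each member gave 24 further genes with 66 probes. The permutation F2 test called 0 of the 66. The linear model also called 0 (smallest adjusted p = 0.107), with 13 at an unadjusted p under 0.05. Of all probes, 17.1% were at that level, and nothing is read from this count. Mean log2 ratios of these probes were between -0.24 and 0.38. *Pkhd1*, the gene of polycystic kidney disease that follows *Tcfap2b*, had 4 probes between -0.02 and 0.02, all near background, and *Il17a* beyond it, also near background, was at -0.02. *Crisp4* was at 0.03 and was not above background on every array. Of the genes around *Tcfap2b*, *Tcfap2d* and *Defb41* (0.06) were the ones with signal in both channels on all 4 arrays.

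For *Mab21l1*, the 11 probes of the host gene *Nbea*, a scaffold protein of neuronal membrane traffic, had means between -0.09 and 0.22. Of these, 4 were at an unadjusted p under 0.05, all 4 higher, where 17.1% of all probes were at that level in either direction. The other neighbours were *Dclk1* (7 probes, -0.12 to 0.13), *Tm4sf1* (0.00) and *Tm4sf4* (-0.01). For *Mab21l2*, the 8 probes of *Lrba*, a relative of *Nbea*, were between -0.07 and 0.38. The probe at 0.38 was the brightest of the gene, was higher on all 4 arrays (0.19 to 0.47) and had an adjusted p of 0.107 by limma, while the other 7 were at or under 0.13. *Sh3d19* had 3 probes between -0.02 and 0.01, *Dclk2* 2 probes at -0.13 and -0.01, and *Cd1d2* was at 0.03.

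Around *Tcfap2a*, probes of *Slc35b3*, *Ofcc1*, *Gcnt2* and *Pak1ip1* had means between -0.09 and 0.08. Around *Tcfap2c*, those of *Rtf2*, *Fam209*, *Bmp7* and *Spo11* had means between -0.12 and 0.02. Of these, *Bmp7* encodes a signal of the roof plate and had probes at -0.12 and -0.05. Around *Tcfap2e*, those of *5730409E04Rik*, *Psmb2*, *Ncdn* and *AU040320* had means between -0.24 and 0.06. None of these 12 genes had a probe called by the permutation F2 test.

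**Figure D3:**
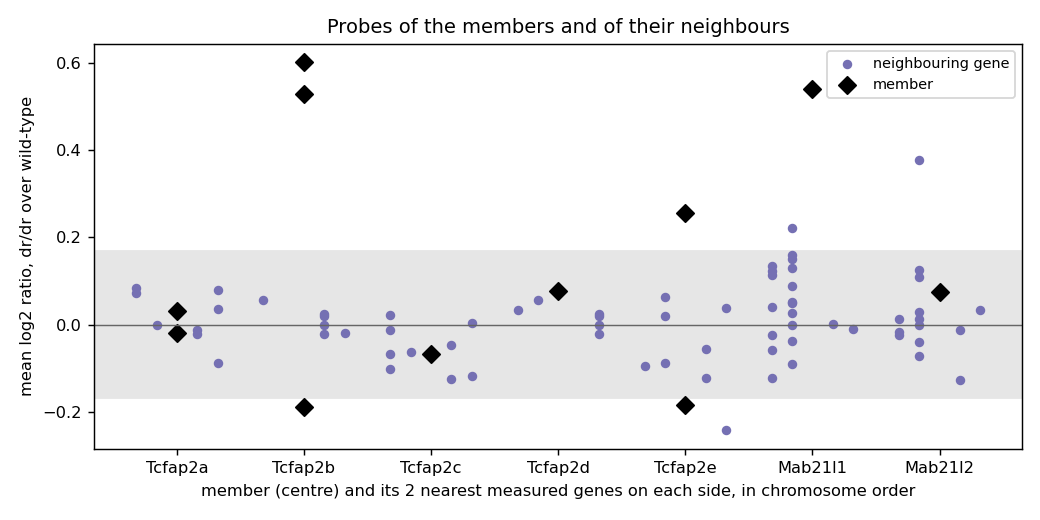
Mean log2 ratio of the dr/dr over the wild-type signal (y axis) for the probes of each member (diamonds) and of the 2 nearest measured genes on each side (circles, in chromosome order), with a grey band from the 5th to the 95th percentile of all probes. The *Tcfap2b* probes at 0.60 and 0.53 and *Mab21l1* at 0.54 stand above all neighbouring probes, of which the highest is *Lrba* at 0.38.

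The patterns most like the called *Tcfap2b* probe were sought among the 26774 named probes that exceeded background in both channels on all arrays, by the root mean square difference of the 4 ratios. Such a likeness rests on 4 arrays and includes the dye. The nearest were *Rnf152*, a lysosomal ubiquitin ligase (difference 0.13, mean log2 ratio 0.53), *Chmp4b* of the ESCRT-III complex (0.13, mean 0.60) and *Wdfy1*, an endosomal protein (0.14, mean 0.50). *Dusp12*, a phosphatase (0.14, mean 0.60), and *Arhgap5* (0.15, mean 0.58) followed. *Rnf152*, *Wdfy1* and *Dusp12* lie on chromosome 1, which also carries *Tcfap2b* and *Lmx1a*. Of the genes compared, 5.70% do. These genes were picked by their ratios on the same arrays, so nothing is read from their place on the chromosome. Between *Tcfap2b* and *Lmx1a* lie 773 of the 1049 measured genes of that chromosome. Whether the DNA around the mutation came from another strain than the wild-type pool was not tested.

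For *Mab21l1* the nearest pattern was that of *Pou4f1* (difference 0.08), a POU homeodomain factor of tectal and sensory neurons, at 0.38, 0.52, 0.44 and 0.76 on arrays a to d. The study calls *Pou4f1* a marker of red nucleus neurons and found it higher in dr/dr by array and qPCR. The study proposes that *Lmx1a* suppresses this alternative fate. *Far1*, an enzyme of ether lipid synthesis (0.10, mean 0.51), and *Selenot*, a selenoprotein of the endoplasmic reticulum (0.14, mean 0.53), came next. They were followed by *Pax3*, a paired-homeodomain factor of the dorsal neural tube (0.16, mean 0.54), and *Lhx9*, a LIM homeodomain factor (0.16, mean 0.42 with this probe), both on chromosome 1 although *Mab21l1* is on chromosome 3. *Pou4f1*, *Far1* and *Selenot* were called by the permutation F2 test, and *Pax3* and *Lhx9* were not. The study does list *Lhx9* among its regulated genes, as higher in dr/dr. The brightest *Lhx9* probe, which stands for the gene in the lists, had a mean of 0.20. *Pou4f1*, *Pax3* and *Lhx9* are on the list of dorsal midbrain regulators described next. The search returns probes of similar mean, and that list was chosen with earlier results of these arrays known. Nothing is therefore read from the overlap.

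**Figure D4:**
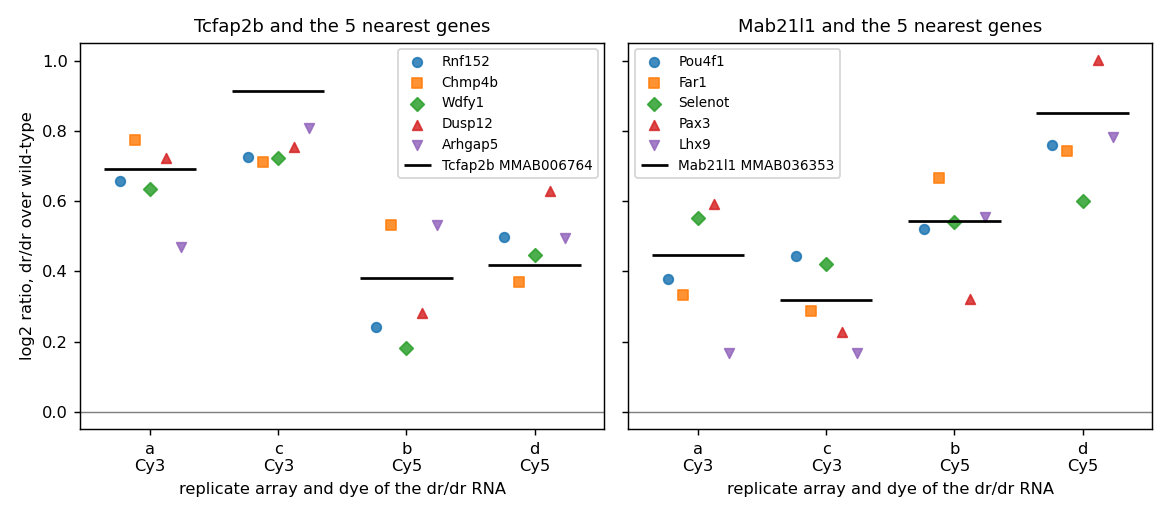
Log2 ratio of the dr/dr over the wild-type signal (y axis) on each array, ordered by the dye of the dr/dr RNA (x axis), for *Tcfap2b* MMAB006764 and *Mab21l1* (black lines) and the 5 genes with the most similar ratios to each (symbols). The *Tcfap2b* line is higher in Cy3 (0.69 and 0.91) than in Cy5 (0.38 and 0.42), and the *Mab21l1* line is higher in Cy5 (0.54 and 0.85) than in Cy3 (0.45 and 0.32).

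Regulators of the dorsal midbrain, where *Tcfap2d* and the Mab21l genes are known to be active, were listed with earlier results of these arrays known. Their counts are given as a description, and nothing is read from them. Of 31 measured of 35 listed, 12 were higher and 2 lower at an unadjusted p under 0.05 by limma, and 0 passed the adjusted threshold. Over all genes, each by its brightest probe, 7.91% were higher and 10.4% lower at that level. The median log2 ratio of the list was 0.12 and that of all genes was 0.00. On the single arrays the list median ranged from 0.01 to 0.16. Without array d it was 0.07, and it was also 0.07 with the mean over all probes of a gene in place of the brightest probe. Of the 31, 10 genes were higher on all 4 arrays and 1 was lower on all 4, and over all genes the shares were 6.75% and 9.01%. Without the dye term, 8 of the 31 passed an unadjusted p of 0.05 in place of 14. All 31 exceeded background in both genotypes on every array.

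*Pou4f1* was the only gene of this list called higher by the permutation F2 test (mean 0.53 ± 0.05 SE, limma adjusted p = 0.0967), a call made for 0.142% of all genes in the higher direction and 0.361% in the lower. *Pax3* was at 0.59, 0.32 and 0.23 on arrays a to c and well above these on array d (mean 0.54 ± 0.13 SE, limma adjusted p = 0.165). The lowest were *En1*, an engrailed homeodomain factor of the midbrain and isthmus, and *Zic1*, a zinc finger factor of the dorsal neural tube. *En1* was lower on all 4 arrays (-0.47, -0.70, -0.28 and -0.45, limma adjusted p = 0.102). *Zic1* was at -0.14, -0.82, -0.69 and 0.17, and was thus mixed in sign (limma adjusted p = 0.421). The list therefore held genes in both directions, and it was chosen with earlier results of these arrays known.

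**Figure D5:**
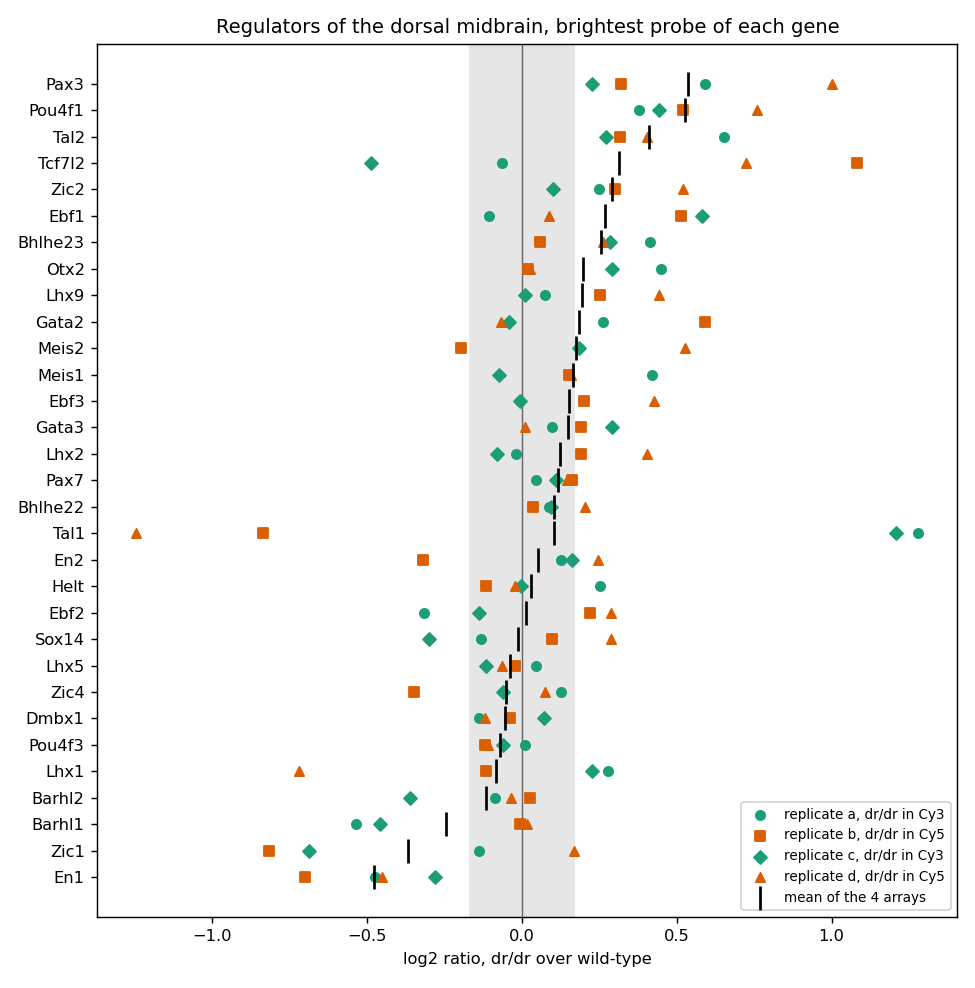
Log2 ratio of the dr/dr over the wild-type signal (x axis) for the brightest probe of 31 regulators of the dorsal midbrain (y axis, ordered by mean), with 1 point per array coloured by the dye of the dr/dr RNA, a bar at the mean and a grey band from the 5th to the 95th percentile of the means of all probes. *Pax3* (0.54) and *Pou4f1* (0.53) are at the top and *En1* (-0.48) at the bottom, and 10 genes have all 4 points above 0.

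Genes that work with the members passed about as often as all genes did (7.91% higher and 10.4% lower), and nothing is read from their counts. Of 14 measured partners and cofactors of AP-2 proteins, 2 were higher and 1 lower at an unadjusted p under 0.05, with a median of 0.03 and 0 calls by either test after correction. The highest were *Kctd1*, a BTB-domain repressor of AP-2 activity (0.21), and *Yeats4* (0.19), and the lowest *Wwox* (-0.09) and the acetyltransferase *Ep300* (-0.09). Of 27 genes described as AP-2 targets, 3 were higher and 1 lower, with a median of -0.03 and 0 calls after correction. They ranged from *Erbb3*, a neuregulin receptor (0.19), and *Gata3* (0.15) down to *Apoe* (-0.18) and *Sox10* (-0.20). The targets were listed from other tissues and need not be targets in the midbrain.

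Among 21 genes of the inhibitory neuron programme of the midbrain, 2 were higher and 3 lower at an unadjusted p under 0.05, with a median of -0.02. Over all genes, 7.91% were higher and 10.4% lower at that level, and nothing is read from these counts. *Tal2*, a factor needed for the inhibitory neurons of the midbrain, was at 0.65, 0.32, 0.27 and 0.41 (mean 0.41, limma adjusted p = 0.116), and *Gata2* had a mean of 0.19. The lowest were the neuropeptide gene *Sst* (-0.32) and *Dlx5* (-0.22). Of 7 measured relatives of the Mab21l genes, 0 passed an unadjusted p of 0.05, and their median was 0.00. They ran from *Mb21d2* (0.18) and *Cgas* (0.09) to *Mab21l4* (-0.03) and *Mief2* (-0.03). Neither list had a gene called by the permutation F2 test.

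AP-2 genes are also active in cells around the midbrain, so markers of those cells are given beside the *Tcfap2b* and *Mab21l1* values. Over all genes, 7.91% were higher and 10.4% lower at an unadjusted p under 0.05. Nothing is read from the marker counts in this and the next paragraph. Of 16 markers of neural crest and sensory ganglia, 3 were higher and 0 lower at an unadjusted p under 0.05 (median -0.01), *Pou4f1* among them. *Sox10*, a defining crest factor, was at -0.20 and *Neurog1* at -0.10, while the neurotrophin receptor *Ntrk2* was at 0.27. The summed intensity of these markers over background ranged from 3716 to 11041 in dr/dr and from 3239 to 12322 in wild-type, across both dyes. Head mesenchyme and meninges had 1 of 19 higher and 0 lower (median 0.01), with *Lum* (0.39) and *Postn* (0.16) highest and *Alx4* (-0.07) and *Foxf2* (-0.05) lowest. Their sum was 981 to 2449 in dr/dr and 800 to 3247 in wild-type.

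Surface ectoderm had 0 of 14 markers higher and 2 lower (median 0.03), from *Cdh1* (0.11) and *Krt8* (0.07) to *Perp* (-0.09) and *Krt5* (-0.13), with sums of 1408 to 4376 in dr/dr and 1306 to 5192 in wild-type. Retina and lens had 1 of 14 higher and 1 lower (median 0.00), from *Rax* (0.16) and *Cryba1* (0.07) to *Cryba4* (-0.08) and *Cryab* (-0.14). Endothelium and blood had 1 of 12 higher and 2 lower (median -0.04), from *Hbb-bh1* (0.28) and *Slc4a1* (0.03) to *Hba-a1* (-0.17) and *Tie1* (-0.19). Above background in both genotypes on all 4 arrays were 14 of 16 neural crest and ganglia markers and 17 of 19 of head mesenchyme. The same held for 9 of 14 of surface ectoderm, 10 of 14 of retina and lens and 12 of 12 of endothelium and blood. The part of such cells in the *Tcfap2b* and *Mab21l1* values was not tested.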

How the data were processed

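RNA of dissected midbrain was measured on 4 two-colour Agilent arrays. The authors quantified the scans with ImaGene and deposited the intensity of each spot and of its surroundings in both channels, before any subtraction or normalization. They also deposited loess-normalized log2 ratios, whose columns correlated with the ratios used here at 0.964 to 0.982 in the direction dr/dr over wild-type. Log2 ratios were computed again from mean intensities with 1 loess curve per array (span 0.3, 4 iterations, 4046 control spots without weight) and no background subtraction. No filter on dim probes was applied. limma 3.58.1 (R 4.3.3) was fitted to 41174 probes with a dye term. Standard errors are those of this fit and leave out the difference between dye orientations, which the SD holds. The methods' permutation F2 test (5000 shuffles of residuals, family-wise p under 0.05) was repeated in Python 3.11.15 with numpy 2.4.6. Both were tested on simulated data.

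Symbols came from the annotation of the array for 34186 probes, with none for 6988, and 2020 symbols were updated through RefSeq. The brightest probe stands for a gene in the lists, and a gene counts as called if any probe was. Named are all probes of the members and their neighbours, the 5 nearest patterns and, per list, called genes with the 2 highest and 2 lowest. The members and lists were chosen with earlier results of these data known. The replicates are separate samples, each a pool, so the spread between single embryos is not measured. Alternatives were normexp background (offset 50), median centring, median spot signal, the authors' table, no dye term, dim probes left out, an intensity trend, the mean over the probes of a gene and each array left out. Protein identity among the members was not analysed here.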

Additional observations from a re-analysis of the deposited data

Results flagged for a closer look

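Among 118 probes of the members, their neighbours and the named genes of the lists, 4 had 1 array far from the other 3. Chance flags about 1 in 20 such groups if the array values are independent. Arrays of the same dye orientation correlated here, so that rate may not hold. None of the 4 flagged probes was an AP-2 or Mab21l probe. *Psmb2* MMAB013846, beside *Tcfap2e*, had its highest array (a) at 0.748, while its other 2 probes were within 0.28 of 0 on every array. *Ncdn* MMAB017192, on the other side of *Tcfap2e*, had its highest array at 0.0614. *Sh3d19* MMAB019176, near *Mab21l2*, had its highest array at 0.124. The lens gene *Cryba4* had its lowest array at -0.120.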

How the results depend on the processing

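Under other processing of the 4 arrays, the called *Tcfap2b* probe lay between 0.58 and 0.62 and *Mab21l1* between 0.52 and 0.58. With each array left out they ranged from 0.50 to 0.67 and from 0.44 to 0.61. For the members, these are plain means of the arrays kept, without a dye term. The dye orientations then no longer weigh equally, so such means also shift with the difference between orientations. The sign of 3 uncalled probes changed. The brightest *Tcfap2b* probe ranged from -0.49 to 0.28, *Tcfap2a* MMAB023650 from -0.12 to 0.11 (and to -0.01 under other processing) and *Tcfap2d* from -0.01 to 0.14. The median of the 11 probes then ranged from 0.0596 to 0.109. That of the dorsal midbrain regulators, taken from the fit with the dye term, ranged from 0.0716 to 0.111. Of these regulators, 11 to 15 were at an unadjusted p under 0.05 by limma. Their median was 0.0728 with the mean over the probes of a gene.

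Counts depended most on the processing. At an adjusted p under 0.05, limma called 0 probes, and also 0 with normexp, the authors' table, no dye term and each array left out. It called 167 with median centring, 3051 with the median spot signal, 52 with dim probes left out and 399 with an intensity trend, and the permutation F2 test called 113. The cause was not tested. At an unadjusted p under 0.05 the main count was 7036. It was 3739 without the dye term, 4045 with dim probes left out (fewer probes tested), and between 4834 and 7209 with each array left out. Without the dye term 8 dorsal midbrain regulators passed in place of 14. Over all lists, 42 of 132 alternative counts at that level, 3 of 120 list medians and 2 of 96 neighbour ratios moved. AP-2 partners went from 3 to 0 without the dye term or array d and to 6 without array c or with the median spot signal. AP-2 targets went from 4 to 9 without array a and 2 without array b, and surface ectoderm from 2 to 0 without array b and 4 without array c. Neural crest went from 3 to 5 and head mesenchyme from 1 to 3 without array a, and midbrain identity from 2 to 4 without array c. Each ratio sets a mutant sample against the wild-type pool on the same array. That pool was the same on all arrays, so the mutant samples had no separate wild-type samples to be paired with. The 4 arrays and a single wild-type pool limit the precision, and probes near background, such as the second *Tcfap2a* probe, give little information on a change.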

Other observations

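Ratios of opposite sign in the 2 orientations, as for the brightest *Tcfap2b* probe, were also seen in *Tal1*, a factor of midbrain inhibitory neurons, which was at 1.28 and 1.21 with dr/dr RNA in Cy3 (arrays a and c) and at -0.83 and -1.24 with it in Cy5 (b and d). Its mean was 0.10 and it was named after its values were seen. *Tcf7l2*, an effector of Wnt signalling, ran the other way, at -0.07 and -0.49 in Cy3 and at 1.08 and 0.72 in Cy5. Over all probes, the absolute difference between the orientation means had a median of 0.13 and a 95th percentile of 0.57.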
